A study of Bos taurus with 32 samples.

Results

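The genes described here are 9 genes of mitosis, CDK1, BIRC5, BUB1B, UBE2C, NUSAP1, CKAP2, STMN1, KIFC1 and KIF23, in liver of dairy cows around calving. They were picked by name because earlier results of these arrays had shown them higher at 9 d after calving than at the earlier days. The 9 genes are measured by 11 of the 24016 probe sets tested, and they are 9 of the 9155 genes with a probe set of a single gene symbol. CKAP2 has 3 probe sets and each of the other genes has 1. All 11 probe sets were measured on every array, and no filter on level was used.

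Liver of Ayrshire cows was biopsied and its RNA was hybridised to Affymetrix bovine expression arrays. In the last 6 weeks before calving was due, cows of the HIGH group were fed a high-energy diet and cows of the CON group a controlled-energy diet. Biopsies were taken 8 days before the predicted calving (-8 d) and again on days 1 and 9 counted from the true calving date (1 d and 9 d). The arrays used here numbered 5 from HIGH and 5 from CON cows at -8 d, 6 from HIGH and 4 from CON cows at 1 d, and 6 from HIGH and 6 from CON cows at 9 d. All 6 groups share breed, tissue and the transition from pregnancy to lactation, and no group of cows that did not calve was analysed here, so days relative to calving cannot be told apart from other changes over the same weeks. The 32 arrays came from 12 cows, 6 per diet, and 5 HIGH and 3 CON cows had all 3 days. P-values therefore measure the spread between these cows.

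Mitosis is the step in which a cell parts its copied chromosomes between daughter cells. Cyclin-dependent kinase 1 bound to a mitotic cyclin starts it, a spindle of microtubules moves the chromosomes, a checkpoint holds the cell until every chromosome is attached, and the anaphase-promoting complex then marks cyclins and other proteins for destruction. The transcripts of these genes are made mainly in the G2 and M phases, so their level in a tissue is widely used as a sign of dividing cells. In adult liver few cells divide at rest, while hepatocytes can re-enter the cell cycle after tissue is lost, as is best known from rodents. The roles given below for single genes come mostly from human and mouse cells. In bulk tissue, fewer cells of a type and less RNA per cell cannot be told apart, and the same holds for more cells and more RNA.

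The values are the deposited log2 levels of a probe set. They compare a probe set between arrays and do not rank one gene's level above another's. The lowest value of the table was 2.35, the array medians were 5.87 to 5.935, and each array's mean correlation with the others was 0.986 to 0.991, so no array stood apart from the rest over all probe sets. The median change of all 9155 genes was -0.006 for 9 d against -8 d, -0.007 for 9 d against 1 d and 0.017 for HIGH against CON at 9 d. Changes below are log2 fold changes averaged over both diets from a limma fit to all arrays, with the standard error (SE). Those of 9 d against either earlier day chose the genes and are given as a description, without a test. The fit gives all probe sets the same correlation between arrays of a cow, 0.138. In all the genes but KIFC1 the levels at -8 d and 9 d were instead negatively related over the cows, as given below. The SEs and intervals for 9 d against -8 d can therefore be too narrow.

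CDK1 is the kinase that drives entry into mitosis. At -8 d its log2 levels were 4.80, 5.42, 4.88, 5.05 and 5.03 in HIGH cows and 4.78, 4.76, 4.51, 5.47 and 5.53 in CON cows. At 1 d the lowest, median and highest of the 6 HIGH cows were 4.48, 5.05 and 5.44, and the 4 CON cows had 5.33, 5.05, 5.31 and 4.15. At 9 d the lowest, median and highest were 6.39, 6.745 and 7.57 in HIGH cows and 5.18, 6.58 and 8.26 in CON cows. Every HIGH array at 9 d lay above every earlier array, and a single CON array at 9 d, that of cow 510 at 5.18, fell within the earlier range, which ended at 5.53. The change was 1.75 (SE 0.23, 95% confidence interval 1.28 to 2.22) for 9 d against -8 d, or 3.36-fold, and 1.77 (SE 0.23) for 9 d against 1 d.

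BIRC5, also called survivin, is the subunit of the chromosomal passenger complex that brings Aurora B kinase to centromeres and the midbody. Its probe set read 5.55, 5.94, 4.50, 5.16 and 5.68 in HIGH cows and 5.03, 4.77, 5.08, 5.77 and 6.04 in CON cows at -8 d. At 1 d HIGH cows had a lowest, median and highest level of 4.85, 5.14 and 5.57, and CON cows had 5.51, 5.86, 6.03 and 5.28. At 9 d these were 6.79, 7.20 and 8.17 in HIGH cows and 5.70, 6.98 and 8.73 in CON cows. Again 11 of the 12 arrays at 9 d exceeded the highest earlier array, at 6.04, and the exception was CON cow 510. BIRC5 changed by 1.88 (SE 0.25), or 3.67-fold, for 9 d against -8 d and by 1.78 (SE 0.25) for 9 d against 1 d.

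BUB1B encodes BubR1, a part of the spindle checkpoint that keeps the anaphase-promoting complex inactive until chromosomes are attached. Its probe set had a narrow range before 9 d: 3.92, 4.04, 4.03, 3.92 and 4.05 in HIGH cows and 3.73, 3.35, 3.67, 4.01 and 4.19 in CON cows at -8 d. At 1 d the 6 HIGH cows ran from 3.44 to 4.04 with a median of 3.715, and the CON cows had 3.72, 3.84, 3.53 and 3.65. On day 9 the lowest, median and highest levels were 4.41, 5.19 and 6.36 in HIGH cows and 3.87, 5.035 and 6.56 in CON cows. Cow 510 was again the single array at 9 d inside the earlier range. The change was 1.31 (SE 0.20), or 2.47-fold, against -8 d and 1.48 (SE 0.21) against 1 d.

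UBE2C is the ubiquitin-conjugating enzyme that works with the anaphase-promoting complex. Its probe set read 5.40, 5.80, 4.51, 5.04 and 4.86 in HIGH cows and 5.32, 4.48, 4.75, 5.63 and 6.01 in CON cows at -8 d. At 1 d HIGH cows had 4.08, 5.015 and 5.43 as lowest, median and highest, and CON cows had 5.76, 4.60, 4.85 and 4.47. The 9 d arrays had a lowest, median and highest level of 6.37, 7.08 and 8.02 in HIGH cows and 5.74, 6.98 and 8.04 in CON cows. Here 2 of 12 arrays at 9 d, those of CON cows 510 and 528, did not exceed the highest earlier array at 6.01. UBE2C changed by 1.85 (SE 0.26), or 3.60-fold, against -8 d and by 2.10 (SE 0.26), or 4.28-fold, against 1 d.

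The next genes act on microtubules. NUSAP1, which binds and bundles spindle microtubules near chromosomes, read 4.75, 4.87, 4.04, 4.28 and 4.72 in HIGH cows and 4.75, 3.59, 4.41, 5.08 and 5.31 in CON cows at -8 d. At 1 d HIGH cows ran from 3.75 to 4.89 with a median of 4.70, and CON cows had 5.10, 4.73, 4.72 and 3.99. At 9 d the lowest, median and highest were 5.41, 6.42 and 6.98 in HIGH cows and 4.81, 6.26 and 7.65 in CON cows. As with CDK1, 11 of 12 arrays at 9 d lay above all earlier ones and CON cow 510 did not. The change was 1.71 (SE 0.24), or 3.28-fold, against -8 d and 1.70 (SE 0.24) against 1 d.

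CKAP2, a microtubule-associated protein of the spindle, had the largest changes of the 9 genes on its main probe set, a rank that its other probe sets did not share. On its main probe set, the one with the highest mean over all arrays, the levels at -8 d were 6.28, 6.04, 4.43, 5.43 and 6.04 in HIGH cows and 5.81, 4.81, 5.39, 6.45 and 6.97 in CON cows. At 1 d HIGH cows ran from 4.70 to 6.27 with a median of 5.72, and CON cows had 6.43, 5.94, 5.81 and 5.77. Among 9 d arrays, the lowest, median and highest were 7.56, 8.195 and 9.10 in HIGH cows and 6.50, 7.85 and 9.53 in CON cows. Cow 510, at 6.50, was the single array at 9 d below the highest earlier array. The change was 2.32 (SE 0.29), or 4.98-fold, against -8 d and 2.22 (SE 0.29), or 4.66-fold, against 1 d.

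The 3 CKAP2 probe sets did not agree in size. The second ran from 2.85 to 3.70 at -8 d, from 3.00 to 3.71 at 1 d and from 3.72 to 5.63 at 9 d, and all 12 arrays at 9 d lay above every earlier array. Its change was 1.21 (SE 0.15) against -8 d and 1.28 against 1 d. The third had ranges of 2.87 to 3.26, 2.80 to 3.44 and 3.00 to 3.42 on the 3 days, near the lowest values of the table, and 0 of 12 arrays at 9 d exceeded the highest earlier one. With the median of the 3 probe sets in place of the main one, the CKAP2 change was 1.18 against -8 d and 1.24 against 1 d, below those of CDK1, BIRC5, BUB1B, UBE2C, NUSAP1 and STMN1.

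STMN1, or stathmin, binds tubulin and destabilises microtubules, and it is switched off by phosphorylation as the spindle forms. Its probe set read 7.89, 8.15, 6.84, 7.64 and 7.58 in HIGH cows and 7.51, 6.70, 7.38, 8.34 and 8.48 in CON cows at -8 d. At 1 d HIGH cows ran from 6.26 to 7.97 with a median of 7.625, and CON cows had 8.13, 7.33, 7.83 and 7.25. The lowest, median and highest at 9 d were 8.93, 9.635 and 10.46 in HIGH cows and 8.27, 9.435 and 10.30 in CON cows. All arrays at 9 d except that of CON cow 510 exceeded the earlier maximum of 8.48. STMN1 changed by 1.89 (SE 0.25), or 3.70-fold, against -8 d and by 1.98 (SE 0.25), or 3.93-fold, against 1 d.

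Both kinesin genes had smaller changes than the other 7. KIFC1, a minus-end-directed motor that crosslinks spindle microtubules and gathers the poles, read 4.77, 4.64, 4.53, 4.62 and 4.53 in HIGH cows and 4.45, 4.81, 4.23, 4.82 and 4.91 in CON cows at -8 d. At 1 d the 6 HIGH cows ran from 4.29 to 4.54 with a median of 4.455, and the CON cows had 4.68, 4.72, 4.62 and 4.56. At 9 d the lowest, median and highest were 5.03, 5.305 and 5.72 in HIGH cows and 4.61, 5.23 and 6.40 in CON cows. The arrays at 9 d again lay above all earlier ones except that of cow 510. The change was 0.72 (SE 0.12), or 1.65-fold, against -8 d.

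KIF23 is a plus-end-directed motor of the central spindle that is needed to complete cytokinesis, and its days overlapped. It read 5.71, 6.08, 5.82, 5.81 and 5.76 in HIGH cows and 6.06, 5.56, 5.68, 6.15 and 6.47 in CON cows at -8 d. At 1 d HIGH cows ran from 5.84 to 6.46 with a median of 6.07, and CON cows had 6.04, 5.88, 5.81 and 5.93. Levels at 9 d had a lowest, median and highest of 6.14, 6.625 and 6.97 in HIGH cows and 6.02, 6.50 and 6.99 in CON cows. Only 7 of 12 arrays at 9 d exceeded the highest earlier array, at 6.47. The change was 0.64 (SE 0.12), or 1.55-fold, against -8 d and 0.51 (SE 0.12) against 1 d.

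**Figure D1:**
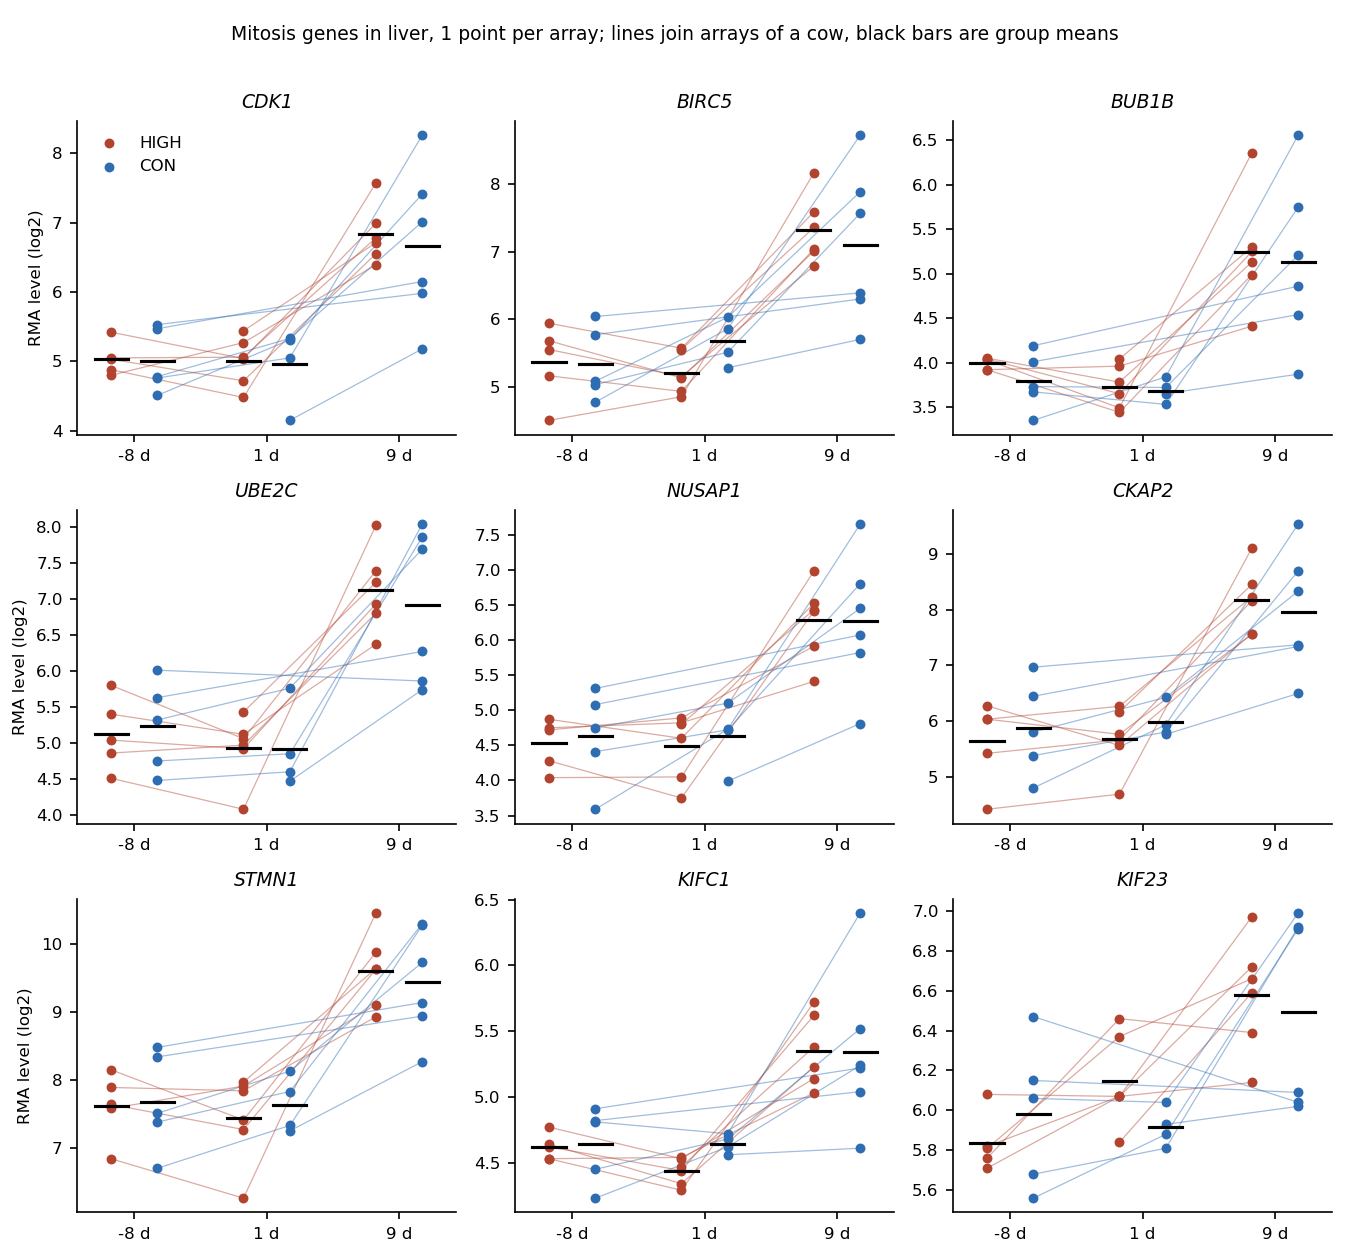
Log2 level of the main probe set of each of the 9 genes (y axis) on the 3 days (x axis), with HIGH cows left in red and CON cows in blue. Each point is an array, thin lines join the arrays of a cow and black bars are group means. The arrays at 9 d lie above the earlier ones with the exceptions named in the text, and CON cows at 9 d are spread more widely than HIGH cows in all 9 genes.

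With the same fit and a threshold of adjusted p under 0.05 (limma, Benjamini-Hochberg over 24016 probe sets), 9 of 9 genes passed upward for 9 d against -8 d and for 9 d against 1 d. Of all genes, 7.79% passed upward for 9 d against -8 d and 7.44% for 9 d against 1 d. Since these contrasts chose the genes, nothing can be read from that count. Within diets, 9 of 9 passed for 9 d against -8 d in HIGH cows (background 3.87%) and 8 of 9 in CON cows (1.65%), the exception being KIF23 with a change of 0.52. For 9 d against 1 d, 8 of 9 passed in HIGH cows (6.01%) and 8 of 9 in CON cows (1.58%), and KIF23 was the exception in both. Passing in 1 diet and not in the other does not show a difference between diets, which was tested separately and is given below.

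**Figure D2:**
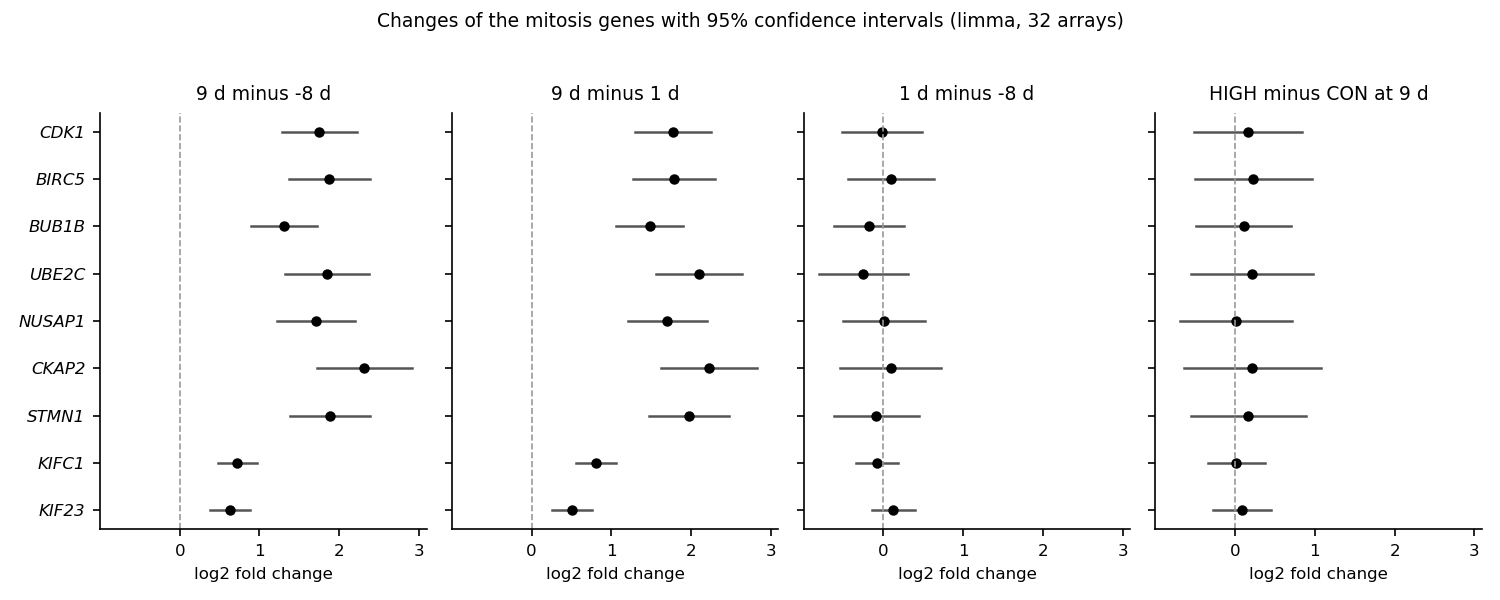
Log2 fold changes of the 9 genes from the limma fit with 95% confidence intervals, for 9 d set against -8 d and against 1 d, for 1 d set against -8 d, and for HIGH minus CON at 9 d. The changes to 9 d run from 0.51 for KIF23 to 2.32 for the main CKAP2 probe set, while every interval for 1 d against -8 d and for diet at 9 d includes 0.

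Within cows, the rise between -8 d and 9 d could be followed in 10 animals. The level at 9 d exceeded that at -8 d in 10 of 10 cows for CDK1, BIRC5, BUB1B, NUSAP1, CKAP2, STMN1 and KIFC1, in 9 of 10 for UBE2C and in 8 of 10 for KIF23. The CDK1 difference averaged 1.89 ± 0.96 (SD, n = 10 cows) and ran from 0.45 in CON cow 528 to 3.50 in CON cow 477. For CKAP2 the difference averaged 2.42 ± 1.48 and ran from 0.40 to 4.72 in the same cows. The size of the difference thus varied widely between cows.

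Cow 528 had the smallest difference in CDK1, BIRC5, UBE2C, CKAP2 and KIF23, and it was the cow in which UBE2C was lower at 9 d, by -0.15. Its 9 d array also stood apart in the actin control, a sign of RNA quality given below, at 3.87. KIF23 was lower at 9 d in CON cows 527 and 528, with a lowest difference of -0.43. For 9 d against 1 d, also over 10 cows, the difference was above 0 in 10 of 10 cows for 8 genes and in 9 of 10 for KIF23. In the CON cows with 1 d and 9 d arrays, cow 510 had the smallest differences, among them 1.03 for CDK1, 0.42 for BIRC5 and 0.05 for KIFC1.

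The order of the cows was largely shared among the genes, and it differed between -8 d and 9 d. At -8 d, CON cow 528 had the highest level of the 10 cows for 9 of 9 genes and CON cow 527 was among the top 3 for 8, while CON cow 477 was the lowest for 5. At 9 d, cow 477 was the highest of 12 cows for 7 of 9 genes, HIGH cow 460 was among the top 3 for 9, CON cow 527 was among the bottom 3 for 9 and CON cow 510 was the lowest for 9 of 9. The SD among cows at 9 d was larger in CON than in HIGH cows for 9 of 9 genes, between 0.27 and 0.64 in HIGH cows and between 0.49 and 1.15 in CON cows; the difference in spread was not tested.

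In CON cows at 9 d, the 3 with arrays on all 3 days (445, 477 and 483) lay above the other 3 (510, 527 and 528) for 9 of 9 genes, beside 6.39% of all genes. The 9 genes varied together between cows at 9 d, as given below, so they are not 9 independent observations. CDK1, for example, was 7.01 to 8.26 in those 3 cows and 5.18 to 6.15 in the others. Why arrays of some cows and days are not among those analysed is not given in the sources used here. With only the 8 cows that had all 3 days, the change for 9 d against -8 d was 2.35 for CDK1, 3.00 for CKAP2 and 0.96 for KIF23, and the median of the 9 genes was 2.35, against 1.75 with all arrays.

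Levels of the same gene before and after calving were set against each other over the cows, a comparison chosen after the data were seen. For the main probe set of CKAP2, the level at 9 d was lower in cows with a higher level at -8 d, over 10 cows (Pearson r = -0.911, permutation p = 0.00031, adjusted p = 0.00837 over 27 relations; Spearman rho = -0.912, adjusted p = 0.0167). Without cows 460 and 477, whose levels at -8 d were farthest from the median, r was -0.842, and with diet means removed it was -0.943. The relation rests on that probe set: for the second CKAP2 probe set r was -0.148 over the same cows, and for the third it was 0.042. For the other genes, none passed after adjustment: r was -0.794 for NUSAP1, -0.777 for BIRC5, -0.761 for STMN1, -0.730 for UBE2C, -0.644 for CDK1, -0.577 for BUB1B, -0.479 for KIF23 and 0.088 for KIFC1. The lowest adjusted p among these 8, from permutation, was 0.0806. Without the 2 cows farthest from the median at -8 d, r was -0.339 for CDK1, 0.05 for BUB1B, 0.183 for KIF23 and -0.428 for NUSAP1, so those relations rest on these cows. Within the 5 HIGH and the 5 CON cows, r was 0.116 and -0.837 for CDK1 and 0.609 and -0.917 for BUB1B. It was 0.523 and -0.786 for KIF23 and -0.319 and 0.156 for KIFC1. For BIRC5, UBE2C, NUSAP1, CKAP2 and STMN1 it was negative in both diets. With 5 cows per diet these values are a description and were not tested. The 27 relations are the 9 genes over 3 pairs of days, and none between -8 d and 1 d or between 1 d and 9 d passed after adjustment.

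**Figure D3:**
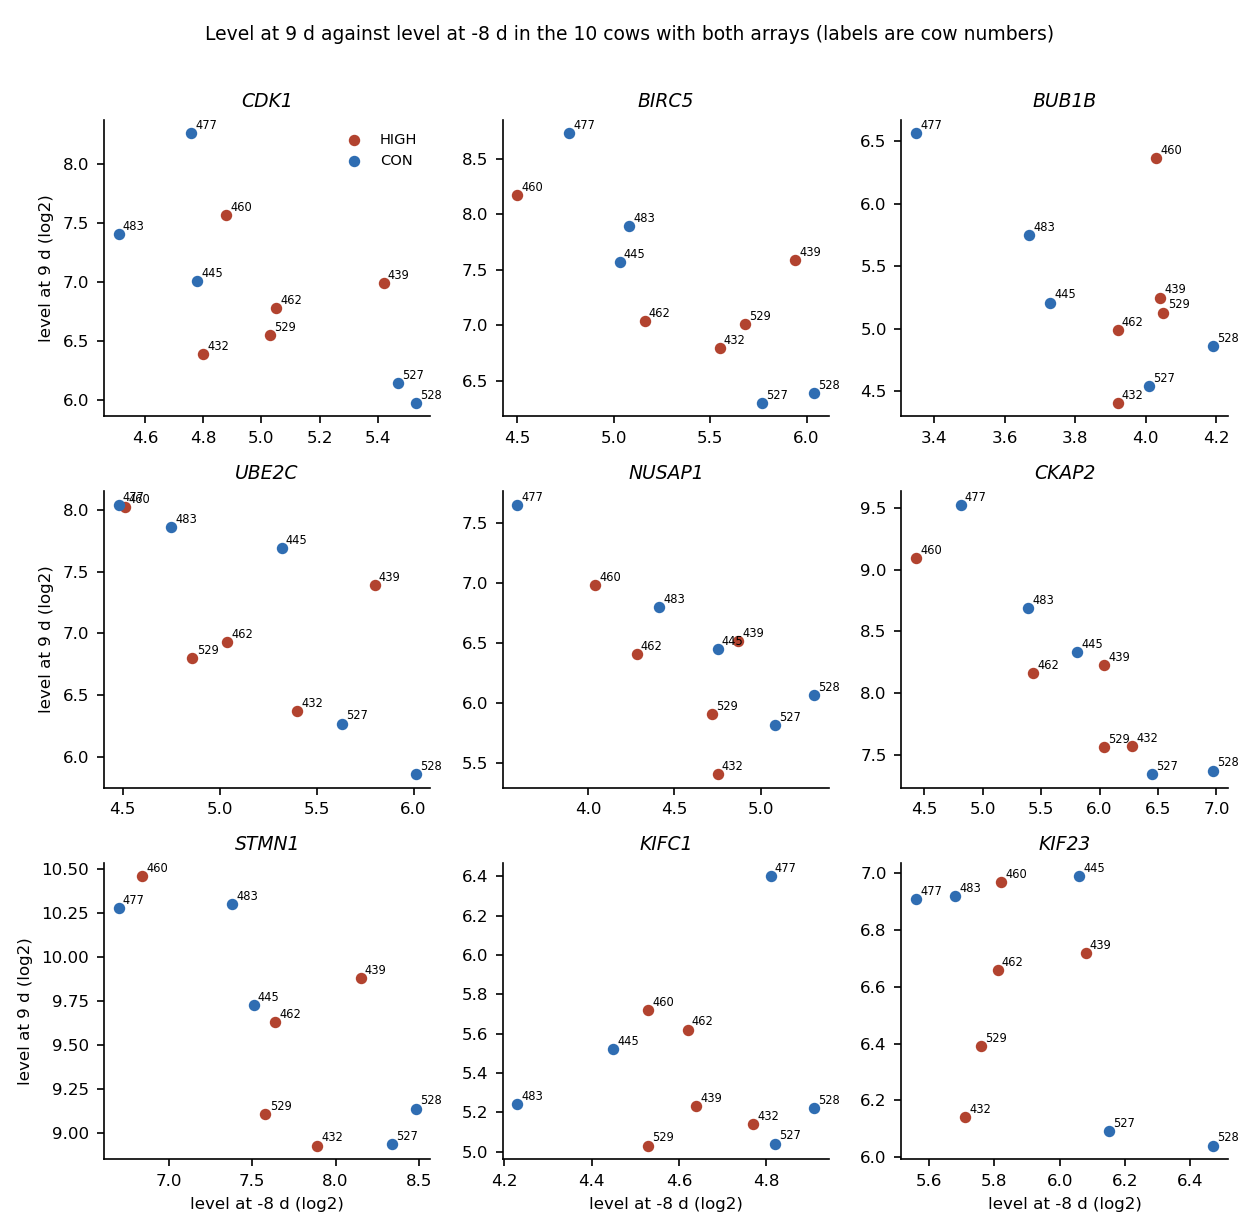
Log2 level at 9 d (y axis) against log2 level at -8 d (x axis) for each gene in the 10 cows with both days, HIGH cows in red and CON cows in blue, with cow numbers. CON cows 527 and 528 lie low at 9 d and high at -8 d, and the clearest slope is that of the main CKAP2 probe set (r = -0.911). The 9 d array of cow 528 stood apart in the actin control.

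At 1 d no change of the 9 genes was detected. Against -8 d, 0 of 9 passed, while 28.8% of all genes did (limma, Benjamini-Hochberg). The changes ran from -0.25 for UBE2C to 0.13 for KIF23, the 95% confidence intervals lay between -0.81 and 0.73, and the lowest adjusted p was 0.530. No gene had an unadjusted p under 0.05. The genes were chosen as higher at 9 d than on both earlier days, which bears on their average at -8 d and 1 d. It also bears on the change between those days, since a gene already raised at 1 d has a smaller change from 1 d to 9 d. The count of 0 of 9 is therefore not independent of the choice and cannot be weighed against the 28.8%. Within the 8 cows with both days, KIF23 was higher at 1 d in 6 of 8, by 0.29 on average, with an exact p of 0.03125 from sign flips of the cows; 32.9% of all genes had an exact p under 0.05 in that test. For the other 8 genes the exact p was 0.2188 or more.

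No difference between the diets passed the limma test on any day. There, 0 of 9 genes passed for HIGH against CON at -8 d, where 0% of all genes passed, 0 of 9 at 1 d, where 0.0109% passed, and 0 of 9 at 9 d, where 0% passed. The lowest adjusted p was 0.9996 at -8 d, 0.787 at 1 d and 0.998 at 9 d, and no gene had an unadjusted p under 0.05 on any of the 3 days. The limma fit shares 1 estimate of spread per probe set over all 6 groups. Group SDs of the genes reached 0.85 at -8 d, 0.65 at 1 d and 1.15 at 9 d. Tests of the earlier days, 1 d against -8 d included, can therefore be too cautious. For diet at 9 d, where the spread was largest, the SEs and intervals of that fit can instead be too narrow. The arrays bound these differences only loosely: at 9 d the estimates ran from 0.01 to 0.23 with intervals between -0.69 and 1.08.

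At 9 d, CDK1 averaged 6.83 ± 0.42 in HIGH cows and 6.67 ± 1.11 in CON cows (SD, n = 6 each), a difference of 0.17 (SE 0.33). That SE rests on the spread shared by all groups and can be too small. BIRC5 averaged 7.33 ± 0.50 in HIGH cows and 7.10 ± 1.15 in CON cows, and CKAP2 averaged 8.18 ± 0.58 in HIGH cows and 7.96 ± 1.10 in CON cows. The HIGH and CON ranges overlapped in all 9 genes. The sign of the diet difference at 9 d turned on which cows were included. It was above 0 for 9 of 9 genes with all arrays, below 0 for 9 of 9 without CON cow 510 (-0.26 to -0.01), and below 0 for 9 of 9 with only the cows that had all 3 days (-0.76 to -0.36). Without CON cow 477 it was 0.18 to 0.57.

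At 1 d, 2 genes had an unadjusted exact p under 0.05 in a permutation of the cows, which cannot give less than 0.00476 with 6 against 4 cows. KIFC1 ran from 4.29 to 4.54 in HIGH cows, all below the CON cows at 4.56 to 4.72 (difference -0.21, exact p = 0.009524). BIRC5 averaged 5.20 ± 0.30 in HIGH cows (n = 6) and 5.67 ± 0.34 in CON cows (n = 4), with a difference of -0.47 and an exact permutation p of 0.04286. Of all genes, 4.13% had an exact p under 0.05 for this contrast. In the limma fit their adjusted p-values were 0.820 for KIFC1 and 0.802 for BIRC5. The SD of KIFC1 was 0.10 in HIGH and 0.07 in CON cows at 1 d, but 0.60 in CON cows at 9 d. Since that fit pools the spread of all groups, its test of KIFC1 at 1 d was cautious. At -8 d and at 9 d, 0 of 9 genes had an exact p under 0.05, beside 5.72% and 4.23% of all genes.

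The test of whether a change over time differed between diets found 0 of 9 genes past the threshold in the limma fit for any of the 3 pairs of days (1 d against -8 d, 9 d against either earlier day), and 0% of all genes in each. The lowest adjusted p-values were 0.802, 0.9998 and 0.838. An exact permutation of the within-cow differences was added after the data were seen. For 1 d against -8 d it compared 5 HIGH with 3 CON cows, where no p under 0.0179 is possible. The HIGH minus CON difference was -1.08 for BIRC5 (exact p = 0.01786), -0.71 for NUSAP1 (exact p = 0.01786), -0.85 for STMN1 (exact p = 0.03571) and -0.37 for KIFC1 (exact p = 0.03571). These are 4 of 9 genes with an unadjusted p under 0.05, beside 5.67% of all genes. The 9 genes share these cows, and their levels varied together between cows (median r over pairs 0.711 at -8 d and 0.481 at 1 d). They are therefore not 9 independent observations, and the count cannot be read as an excess over that share.

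HIGH and CON cows did not overlap in 4 of 9 genes, BIRC5, NUSAP1, CKAP2 and STMN1, beside 5.75% of all genes. Since the 9 genes share cows and vary together, this count too does not rest on independent observations. The BIRC5 within-cow differences of 1 d minus -8 d ran from -0.55 to 0.35 in HIGH cows, with a median of -0.37, and from 0.48 to 1.09 in CON cows, with a median of 0.95. STMN1 ran from -0.74 to 0.33 in HIGH cows and from 0.45 to 0.63 in CON cows. For CDK1 the difference between diets was -0.67 with an exact p of 0.05357, and for KIF23 it was 0.23, the other way, with an exact p of 0.2321. All 3 CON cows were higher at 1 d than at -8 d for CDK1, BIRC5, UBE2C, NUSAP1, CKAP2 and STMN1. These were cows 445, 477 and 483, while CON cows 527 and 528, high at -8 d, had no 1 d array. In the limma fit to all arrays the CON change was 0.367 for BIRC5, 0.158 for CKAP2 and 0.077 for NUSAP1. It was 0.013 for STMN1, 0.002 for CDK1 and -0.293 for UBE2C. The HIGH minus CON difference there was -0.545 for BIRC5, -0.135 for NUSAP1, -0.204 for STMN1 and -0.207 for KIFC1. The size of these differences thus depended on which cows had both arrays. With cow as a fixed term in limma the BIRC5 difference was -0.72 with an adjusted p of 0.858, and with only the cows that had all 3 days it was -1.08 with an adjusted p of 0.651, so the difference did not pass in any fit over all genes. For 9 d against -8 d and 9 d against 1 d the exact test gave 0 of 9, beside 3.99% and 3.80% of all genes.

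**Figure D4:**
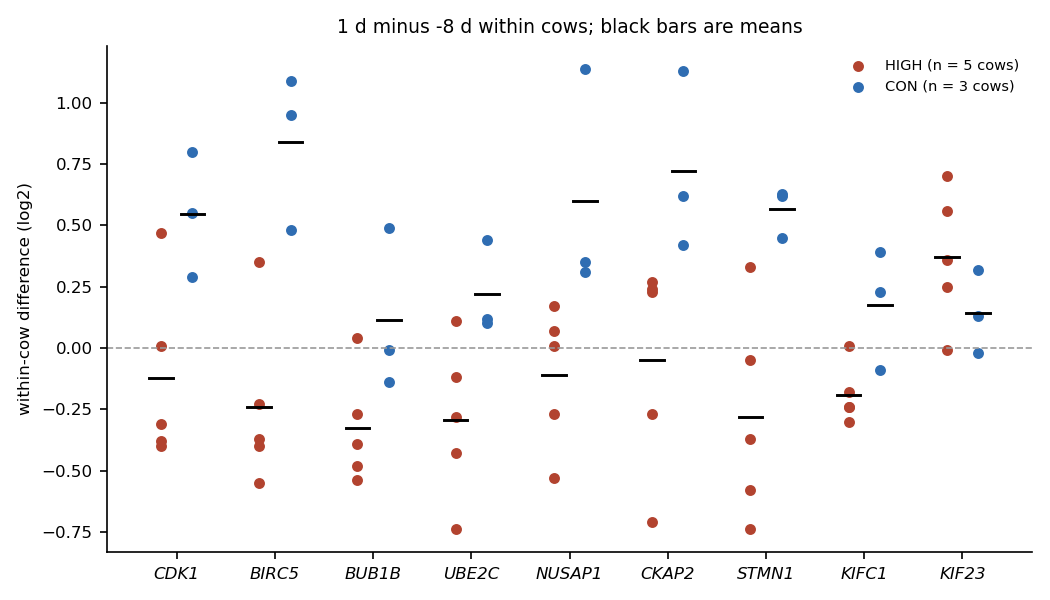
Within-cow log2 difference of 1 d minus -8 d for each gene (y axis), with the 5 HIGH cows left in red and the 3 CON cows in blue; black bars are means. In BIRC5 the HIGH cows run from -0.55 to 0.35 and the CON cows from 0.48 to 1.09, while KIF23 shows no such order.

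Between cows at 9 d, the 9 genes varied together. The CDK1 level was set against that of each other gene over the 12 cows, which gave 8 relations. Pearson r was 0.986 for BIRC5, 0.976 for CKAP2, 0.947 for NUSAP1, 0.944 for BUB1B, 0.937 for UBE2C, 0.934 for STMN1, 0.874 for KIF23 and 0.872 for KIFC1. Permutation p-values adjusted over the 8 relations ran from 2e-05 to 0.00047, where 1e-05 is the smallest unadjusted p that 100000 permutations can give. Spearman's rho ran from 0.846 for KIFC1 to 0.993 for UBE2C, with adjusted p from 4e-05 to 0.00087. Without cows 477 and 510, the highest and lowest in CDK1, r ran from 0.619 for KIFC1 (p = 0.0592, permutation) to 0.977 for BIRC5. Within HIGH cows r was 0.741 (KIFC1) to 0.970 (STMN1), and within CON cows 0.876 (KIF23) to 0.998 (CKAP2), over 6 cows each. The median r over the 36 pairs of the 9 genes was 0.711 over 10 cows at -8 d, 0.481 over 10 cows at 1 d and 0.934 over 12 cows at 9 d, given as a description, since all pairs share their arrays.

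Genes outside the 9 were ranked by how closely they followed them, as Pearson r over the 32 arrays with the mean of the 9 standardised levels, among 9146 genes. The 10 closest were SHCBP1 (0.974), ECT2 (0.972), CDC20 (0.965), BUB1 (0.962), PCLAF (0.953), CCNB1 (0.951), CENPF (0.943), CCNA2 (0.942), SKA1 (0.940) and CCNB2 (0.937). After the 6 group means were removed, so that only variation between cows was left, the 10 closest were ECT2 (0.921), SHCBP1 (0.918), CCNB1 (0.913), CDC20 (0.908), BUB1 (0.895), CCNB2 (0.886), CENPF (0.882), SPC24 (0.879), NCAPG (0.870) and KIF4A (0.864). The 2 rankings share 7 genes. By the same measure against the mean of the other 8, the 9 genes themselves ran from 0.840 for KIF23 to 0.974 for CKAP2.

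Other genes of mitosis were counted by role, from lists with 130 further genes, of which 86 had a probe set. The lists were chosen with earlier results of these data known, and several of their genes varied with the 9 between cows, as given above. The counts are therefore not independent of the choice of the 9. For 9 d against -8 d, 42 of the 86 rose and 1 fell (LIN37), with a median change of 0.23, beside 7.79% of all genes up and 5.08% down and a median change of all genes of -0.006 (limma, adjusted p under 0.05). For 9 d against 1 d, 42 rose and 1 fell (RBBP4, by 0.15), with a median of 0.25, beside 7.44% up and 10% down of all genes. For 1 d against -8 d, 7 rose and 5 fell, beside 16.5% up and 12.3% down of all genes, and for diet at 9 d none passed.

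Among mitotic kinases and cyclins, 9 of 13 rose for 9 d against -8 d and 9 of 13 for 9 d against 1 d. BUB1, a checkpoint kinase, changed by 1.47 (SE 0.24, limma adjusted p = 9.79e-05), and the cyclins CCNA2 and CCNB2, partners of CDK1, by 1.24 and 1.39. None of the 13 passed for 1 d against -8 d. Of the chromosomal passenger complex, to which BIRC5 belongs, AURKB, its kinase, rose by 0.31 (limma adjusted p = 0.00764), and CDCA8, another subunit, had a change of 0.17 that did not pass (limma adjusted p = 0.193). Of 7 spindle checkpoint genes, 4 rose, among them BUB1, SPDL1 by 0.41 and ZW10 by 0.19; the last was already higher at 1 d, by 0.25.

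At the centromere and kinetochore 8 of 19 rose, led by SPC24, a subunit of the NDC80 complex, by 1.56 (SE 0.23, limma adjusted p = 3.03e-05), CENPN by 1.17 and SKA1 by 0.99. CENPN was already higher at 1 d, by 0.59 (limma adjusted p = 0.0226). Of kinesins and spindle proteins 9 of 13 rose, among them TPX2, which activates Aurora A on the spindle, by 1.14, TACC3 by 0.67 and KIF22 by 0.47. Both measured cytokinesis genes rose: ECT2, the exchange factor recruited by the central spindle complex that holds KIF23, by 1.64 (SE 0.25, limma adjusted p = 5.82e-05) and CIT by 0.73. Of condensin, cohesin and other chromosome proteins 6 of 12 rose, with NCAPG at 1.18, NCAPG2 at 0.73 and SGO1 at 0.43.

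In the remaining lists, 3 of 15, 2 of 5 and 0 of 14 genes rose for 9 d against -8 d, beside 7.79% of all genes. Of 15 genes of the anaphase-promoting complex and its regulators, 3 rose: CDC20, its activator, by 0.93, FBXO5, its inhibitor, by 0.65 and UBE2S, the enzyme that extends the chains begun by UBE2C, by 0.43. The median of those 15 was 0.03. Of 5 transcription regulators of mitosis genes, TFDP1 rose by 0.31, LIN52 rose by 0.37 and LIN37 fell by 0.24 (limma adjusted p = 0.0239). LIN52 had already risen by 0.56 at 1 d. Of 14 close relatives of the 9 genes, such as CDK2, STMN2 and STMN4, none passed for either comparison with 9 d, and the changes against -8 d ran from -0.32 to 0.17, beside 7.79% of all genes up.

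**Figure D5:**
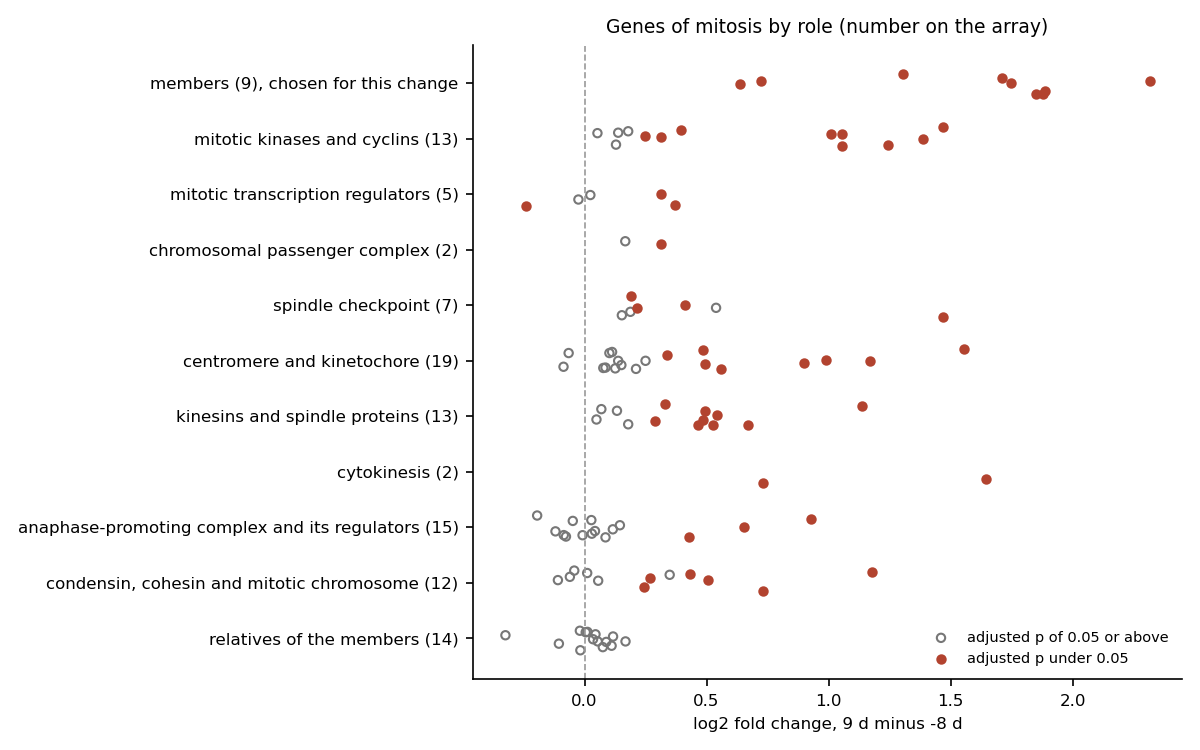
Log2 fold change of 9 d against -8 d (x axis) for the 9 genes, for the other genes of mitosis by role and for close relatives of the 9 (y axis). Each point is a gene and filled points passed adjusted p under 0.05. Kinases and cyclins, spindle proteins and kinetochore genes reach 1.56, while the relatives lie between -0.32 and 0.17.

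Genes of DNA replication, which act in the S phase before mitosis, also rose: 17 of 23 for 9 d against -8 d and 8 of 23 for 9 d against 1 d, none down in either. Of all genes, 7.79% rose in the first comparison and 7.44% in the second. RRM2, a subunit of ribonucleotide reductase, changed by 2.12 (SE 0.27, limma adjusted p = 4.81e-06), PCLAF, a partner of the replication clamp, by 2.50 and TYMS, thymidylate synthase, by 1.13. TYMS differed from the 9 genes in that it had already risen by 0.57 at 1 d (limma adjusted p = 0.0289).

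Markers of cell types were checked for 9 d against -8 d, since liver biopsies hold blood and several resident cells. Of all genes, 7.79% rose and 5.08% fell in that comparison. The mean of the 14 hepatocyte markers was 13.28 to 13.49 at 9 d and 13.32 to 13.49 at -8 d. Of these markers 2 rose (APOA1 by 0.98 and CPS1 by 0.16) and 2 fell (TTR by 0.20 and ASGR1 by 0.14). Of 14 T and NK cell markers 0 rose and 1 fell (CD2, by 0.21), and none of 4 B cell, 9 Kupffer cell and 13 endothelial markers passed. Of 6 neutrophil markers 1 rose (LTF, by 1.10), and of 8 erythroid markers 0 rose and 2 fell (HBB by 1.59 and HBA by 0.23). Of 13 stellate cell and 7 cholangiocyte markers, 0 rose and 1 fell in each list (BGN by 0.28 and CFTR by 0.23).

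The mean of the T and NK cell list was 5.44 to 5.94 at 9 d and 5.53 to 6.05 at -8 d, that of the Kupffer cell list 9.19 to 9.91 at 9 d and 9.28 to 10.05 at -8 d, and that of the neutrophil list 5.92 to 6.98 at 9 d and 5.63 to 6.30 at -8 d. The erythroid list had 4.26 to 4.67 at 9 d and 4.36 to 4.94 at -8 d. The neutrophil list averaged 5.95 at -8 d, 7.07 at 1 d and 6.40 at 9 d. The erythroid list averaged 4.66, 4.64 and 4.41 on those days. The part of the markers that moved in the result was not tested. Over the 12 cows at 9 d, a comparison added after the data were seen set CDK1 against the mean of each of the 9 marker lists. None passed, and the strongest was the hepatocyte list (r = -0.683, permutation p = 0.0143, adjusted p = 0.129 over 9 relations).

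As a sign of RNA quality, the 3' minus 5' difference of the actin control probe sets averaged 1.60 at -8 d, 1.61 at 1 d and 1.78 at 9 d, and that of the GAPDH control 0.54, 0.53 and 0.58. That of the EF1A control averaged -0.68 ± 0.12 over the 10 arrays of -8 d, -1.07 ± 0.15 over the 10 of day 1, the lowest of the 3, and -0.81 ± 0.13 over the 12 of day 9 (SD), and its part in the result was not tested. The arrays of HIGH cow 432 and CON cow 528 at 9 d stood apart from their groups in actin, at 2.19 and 3.87. Without the 9 d array of cow 528 the change for 9 d against -8 d was 1.83 for CDK1, 2.39 for CKAP2 and 0.69 for KIF23. Leaving out 1 array cannot show the part of a shift shared by a day, and the part of RNA quality was not tested. Without the 9 d array of cow 432 the 9 changes ran from 0.68 to 2.38.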

How the data were processed

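The authors deposited a table of log2 expression values per probe set, made with Affymetrix Expression Console 1.1 and RMA per the submitters' processing notes. RMA gives all arrays a common distribution, so a change is read relative to most probe sets. Its settings are not given in the sources used here.

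The table has 24128 probe sets. The 112 control probe sets stayed out of the tests, which covered the other 24016 with no minimum level. The array annotation gave 13292 of these 1 gene symbol, 86 several and 10638 none. A gene's main probe set is the one with the highest mean over all arrays. Genome positions and sequences were not used here. The members and the gene lists were chosen with earlier results of these data known.

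Group means of all 32 arrays were fitted in limma 3.58.1 (R 4.3.3), where arrays of a cow shared a consensus correlation of 0.138, followed by empirical Bayes with a mean-variance trend. Tests were two-sided, with Benjamini-Hochberg adjustment per contrast and a threshold of 0.05. The fit was tested on simulated data. Exact tests permuted cows or flipped the signs of within-cow differences, and correlations used 100000 permutations (Python 3.11.15, scipy 1.17.1).

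Cow numbers in the labels pair the arrays. Deviations from group means correlated at 0.229 to 0.464 over 28 pairs of arrays of the same cow, and at -0.013 on average over 57 pairs of other cows that share a title number. Named were all members, up to 3 genes per list with the smallest p for 9 d against -8 d, and the 10 genes most like the members by each of 2 measures. Markers were named after their values were seen. Alternatives were no cow term, cow as a fixed term, the title number as a block, array weights, no trend, centring on array medians, a minimum mean level of 5, the median of a gene's probe sets, only cows with all 3 days, and leaving out each array.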

Additional observations from a re-analysis of the deposited data

Results flagged for a closer look

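The actin control had a 3' minus 5' difference of 2.19 on the array of HIGH cow 432 at 9 d, which was far from the other arrays of its group. It was 3.87 on the array of CON cow 528 at 9 d, where the other 5 CON arrays had 1.48 to 1.75. Of 18 groups of control differences 2 stood out by Dixon's test, which flags about 1 in 20 by chance, and of 66 groups of member probe sets 0 did.

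The within-cow change of 1 d against -8 d differed between HIGH and CON cows by an unadjusted exact permutation test in 4 genes. The HIGH minus CON difference was -1.08 for BIRC5, -0.71 for NUSAP1, -0.849 for STMN1 and -0.367 for KIFC1, over 5 HIGH and 3 CON cows. In the limma fit to all arrays it was -0.545, -0.135, -0.204 and -0.207 for these genes, in that order. Of 63 exact tests on the 9 genes, 7 had an unadjusted p under 0.05. These tests share cows and arrays and are not independent.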

How the results depend on the processing

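For diet on each day, 1 d against -8 d and diet by time, 0 of 9 genes passed under each limma alternative that could be fitted, leave-one-array-out fits included (0 to 0). Of their 63 tested changes, 48 changed sign without passing in at least 1 fit. Of 18 described changes to 9 d, none changed sign and 2 moved by over 1 SD, those of CKAP2 with the median of its probe sets (1.18 against -8 d and 1.24 against 1 d).

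The count of other mitosis genes past the threshold was 43 for 9 d against -8 d and ran from 31 with a minimum mean level of 5 to 49 with array weights, and from 35 to 46 with each array left out. It was 45 with cow as a fixed replicate block, 39 without a block and 39 with the title number as the block. For 9 d against 1 d it was 43 and ran from 31 to 45, with 39 to 47 when each array was left out and 43 with the cow as a fixed block. The replicate block changed no call of the 9 genes. With cow as a fixed term, diet on a single day gives no value, and with a minimum mean level of 5 BUB1B and KIFC1 have none.

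The lowest correlation of CDK1 with another gene at 9 d was 0.619 without the 2 cows farthest from the median, 0.741 in HIGH cows and 0.876 in CON cows, with permutation p-values of 0.0592, 0.0792 and 0.0667, while 7 of 8 relations still passed in each. The cause was not tested, and these fits hold fewer cows. The number of arrays, 4 to 6 per group, limits the precision.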

Other observations

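Regulators of the G1 phase did not show the time course of the 9 genes as a group. Of 13 G1 cyclins, kinases and E2F factors, 2 rose and 0 fell for 9 d against -8 d (limma, adjusted p under 0.05), beside 7.79% of all genes up. CCND1, the cyclin that starts G1 progression, was 0.69 higher at 9 d than at -8 d, but its change was 1.04 at 1 d against -8 d (limma adjusted p = 8.97e-06) and -0.36 at 9 d against 1 d (limma adjusted p = 0.112). CCNE2, a cyclin of S phase entry, had a change of 0.84 for 9 d against -8 d and of 0.06 for 1 d against -8 d.

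Of 9 genes that restrain the cell cycle, 1 rose and 2 fell for 9 d against -8 d, beside 7.79% of all genes up and 5.08% down. CDKN2C, an inhibitor of CDK4 and CDK6, rose by 1.36 (SE 0.13, limma adjusted p = 4.4e-08), and by 1.27 for 9 d against 1 d. BTG1 fell by 0.68 and GADD45B fell by 1.36, and both were already lower at 1 d, by -0.94 and -1.64. Of 16 genes listed under signals of liver growth, which need not all promote growth, 2 rose and 0 fell, beside the same shares of all genes. Whether the small counts of these lists differ from those shares was not tested. The genes that rose were TGFB2 by 1.14 (limma adjusted p = 5.63e-07) and CCN1 by 0.88. TGFB2 was already higher at 1 d, by 0.68 (limma adjusted p = 0.000231).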
